A study of Mus musculus with 44 samples.

Results

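The comparison was of dendritic cells from control mice that received tumour cells at ZT9 or at ZT21, with 5 mice at each timepoint, and its 10 libraries were chosen by their labels alone out of 44 in all. Cells with the surface phenotype CD45+CD11c+MHCII high were isolated by sorting from the digested draining inguinal lymph node the day after subcutaneous injection of B16-F10-OVA cells, a mouse melanoma line that expresses ovalbumin, and their RNA was sequenced, with 1 library for each mouse. Zeitgeber time (ZT) counts the hours after lights on, so that ZT9 falls in the light phase and ZT21 in the dark phase. Because cells were collected the day after the injection, each mouse was injected and sampled at the same ZT. The mice were females aged 8 to 12 weeks, and those labelled WT, called control mice here, carried no other label on genotype. The other control mice with tumour cells were 5 at ZT3 and 5 at ZT15, which entered the estimate of the spread. Set beside them were sham-injected WT mice, which received PBS, and mice labelled KO that carried *Clec9a-cre* (heterozygous) with *Bmal1* flox/flox (homozygous) and received tumour cells, each with 3 mice at ZT9 and 3 at ZT21. *Clec9a-cre* acts in conventional dendritic cells and their precursors, and *Bmal1*, listed as *Arntl* in the table, encodes a core factor of the clock.

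Dendritic cells (DCs) take up antigen in tissue, mature, move to the draining lymph node under the chemokine receptor CCR7 and show the antigen to T cells there. The circadian clock is a transcriptional loop in which BMAL1 and CLOCK activate the *Per* and *Cry* genes, whose products repress them in turn, and it also drives *Dbp*, *Tef* and the *Nr1d* genes. Cells make cholesterol from acetyl-CoA by way of mevalonate, squalene and lanosterol. The enzymes of this pathway and INSIG1 share the transcription factor SREBP2, which is held in the endoplasmic reticulum by INSIG proteins when sterol is plentiful.

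The labelled cell type was checked against its markers. In the 10 libraries *Ccr7* ranged from 4260 to 5713 CPM, *Fscn1* from 4272 to 6713 CPM and *Cd74* from 8299 to 11590 CPM, and the conventional DC markers *Flt3* (595 to 770 CPM) and *Zbtb46* (125 to 193 CPM) were present in each. Of 7 melanoma genes, *Tyrp1* was at 0 in each, *Mlana*, *Dct* and *Tyr* did not exceed 0.246 CPM, *Pmel* had 0.498 to 1.49 CPM, and the 7 together had 1.37 to 4.06 CPM at ZT9 and 2.39 to 2.94 CPM at ZT21. Stromal and endothelial genes summed to 65.8 to 82.6 CPM at ZT9 and 76.8 to 116 CPM at ZT21, of which *Ccl19* made up 55.98 to 105 CPM and *Pecam1* 3.58 to 11.1 CPM, and the granulocyte gene *S100a8* did not exceed 1.99 CPM. T cell genes were present at lower values and are given below. Reads on genes numbered 20088012 to 25401545 per library, or a median of 23.1 reads per CPM. Correlations of log2 values across genes were 0.963 to 0.984 between mice at ZT9 and 0.961 to 0.982 between mice at ZT21, against 0.949 to 0.981 between the timepoints. Mouse 1 at ZT9 and mouse 1 at ZT21 had the lowest median correlation with their own group (0.966 and 0.962), so counts are also given without both. The study describes 2 independent experiments, but no label assigns a mouse to either, so a batch of this kind could not be entered.

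To ask which genes differed between the 2 times of day, 11963 genes were fitted with limma on log2(CPM + 0.5), and p-values were adjusted over all of them by Benjamini–Hochberg. At an adjusted p under 0.05, 27 genes changed (0.226%), of which 11 were higher at ZT9 (0.092%) and 16 lower (0.134%), and 8 of the 27 also changed at least 2-fold (0.0669%). The genes that rose at ZT9 were *Insig1*, *Fdft1*, *Sqle*, *Hsd17b7*, *Msmo1*, *Hmgcs1*, *Fdps*, *Cirbp*, *Acsf3*, *Pianp* and *Zfp59*, so that 7 of 11 belonged to sterol metabolism. The genes that fell were *Hsp90ab1* and *Hsp90aa1*, which encode the cytosolic HSP90 chaperones, the lymphocyte genes *Ltb*, *Cd3g*, *Rhoh*, *Cd27*, *Nkg7*, *Izumo1r*, *Skap1* and *Cd96*, and *Hsd11b1*, *Ccl12*, *Ubd*, *Acyp1*, *Stmn1* and *Ly6e*. The mice of the 2 timepoints did not overlap for any of the 27 genes, against 489 genes without overlap in all (4.09%). At an unadjusted p under 0.05, 771 genes were higher at ZT9 (6.44%) and 600 lower (5.02%), and these shares serve as the background for the gene lists below.

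**Figure D1:**
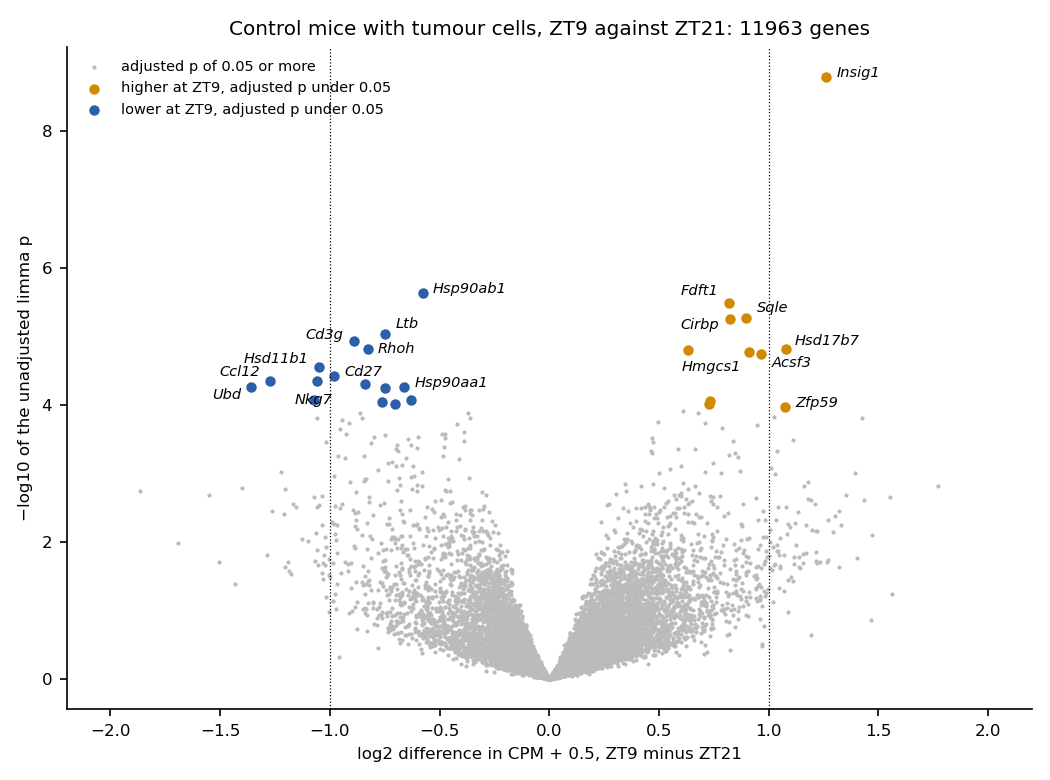
Each point is 1 of 11963 genes in control mice with tumour cells. The x axis gives the log2 difference in CPM + 0.5, ZT9 minus ZT21, the y axis −log10 of the unadjusted limma p, and dotted lines mark a 2-fold change. *Insig1* stands above every other gene, and the 27 genes with an adjusted p under 0.05 lie between log2 differences of −1.36 and 1.26.

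The count of calls depended on single libraries. It was 3 without mouse 2 at ZT9, 8 without mouse 3 or without mouse 4, and 15 without mouse 5. It was 15, 5 and 10 without mice 2, 3 and 4 at ZT21. It was 67 without mouse 3 at ZT3, which enters through the spread, and 21 without mouse 1 of both timepoints, of which 14 were among the 27. The split by direction was not stable either, since 12 genes were higher and 7 lower with the 10 libraries alone, 8 and 4 with all 44 libraries, 262 and 211 with array weights, and 4 and 1 without mouse 3 at ZT21. *Insig1*, *Hsp90ab1* and *Cirbp* were called under each of the 12 alternative settings and with each of the 20 libraries left out in turn, and all of the 27 kept their direction in each fit that tested them (21 of the 27 with a mean of at least 10 CPM, and 27 in the others). Each library came from 1 mouse, so p-values measure the spread between mice.

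**Figure D2:**
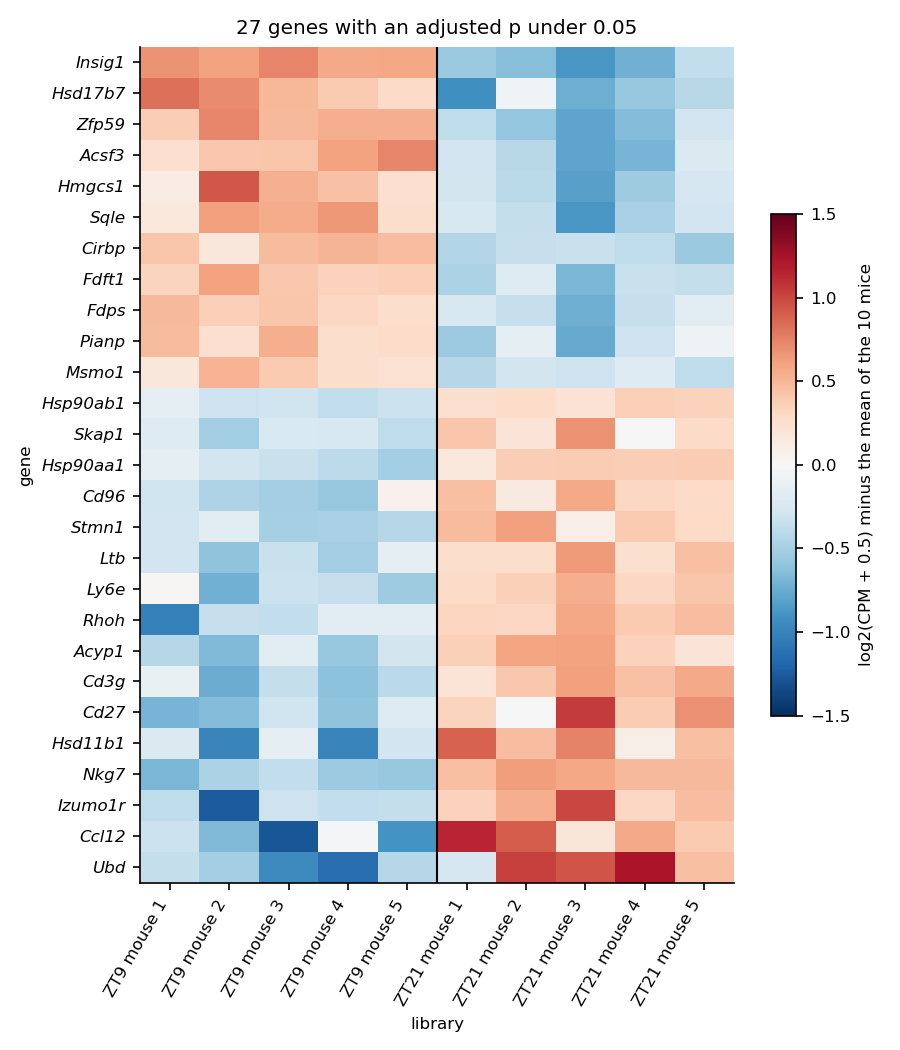
Rows are the 27 genes with an adjusted p under 0.05, ordered by their log2 difference, and columns are the 10 mice. Colour gives log2(CPM + 0.5) minus the mean of the 10 mice for that gene, red above and blue below. The 11 upper rows are higher in the 5 mice at ZT9 and the 16 lower rows in the 5 mice at ZT21.

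Genes of cholesterol synthesis were higher at ZT9, from the making of mevalonate to the last steps of the pathway. *Insig1* (chr5:28071412-28078662, RefSeq GRCm38.p6), which encodes the protein that retains the SREBP complex, had 58.5, 55.8, 60.99, 54.4 and 55.1 CPM in the 5 mice at ZT9 and 24.7, 23.3, 19.8, 22.1 and 28.2 CPM in those at ZT21. The 5 values at ZT9 lay close together, and the lowest of them was far above the highest at ZT21. The fitted change was 2.40-fold, a log2 difference of 1.26 (SE 0.12, adjusted p = 1.98e-05), and it was the smallest p of all genes tested.

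The enzymes of the mevalonate steps held 2 of the calls. *Hmgcs1* (chr13:119690351-119708260), the HMG-CoA synthase, had 177, 310.4, 236, 222 and 194 CPM in the 5 mice at ZT9 and 135, 123, 92.2, 113 and 137 CPM in those at ZT21. The groups did not overlap, although mouse 2 stood well above the others at ZT9, and the change was 1.88-fold, a log2 difference of 0.91 (SE 0.16, adjusted p = 0.0184). *Fdps* (chr3:89093588-89101967), which makes farnesyl diphosphate, had 216 ± 13.4 CPM (SD, n = 5) at ZT9 and 131 ± 18.5 CPM at ZT21 (log2 0.73, adjusted p = 0.0455). *Mvd* (log2 0.68, adjusted p = 0.0511), *Acat2* (log2 0.55, adjusted p = 0.114), *Mvk* (log2 0.52, adjusted p = 0.162) and *Idi1* (log2 0.38, adjusted p = 0.293), of the same steps, were above 0 without passing the test.

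The steps from squalene to cholesterol held 4 of the calls. *Sqle* (chr15:59315092-59331193), the squalene epoxidase, had 73.9, 102, 97.9, 104 and 79.4 CPM in the 5 mice at ZT9 and 56.03, 51.4, 35.9, 47.2 and 54.03 CPM in those at ZT21, and the change was 1.86-fold, a log2 difference of 0.90 (SE 0.14, adjusted p = 0.0134). The lowest mouse at ZT9 was mouse 1, and even this value was above all of ZT21. *Fdft1* (chr14:63145150-63181687), the squalene synthase, had 139.9, 169, 147, 141 and 142 CPM in the 5 mice at ZT9 and 79.6, 96.7, 69.1, 88.1 and 86.8 CPM in those at ZT21 (log2 0.82, adjusted p = 0.0133). Its values were not whole numbers of reads in 97.7% of the 44 libraries, so its level is less certain. *Hsd17b7* (chr1:169949535-169969242), a ketosteroid reductase of the late pathway, had 37.6, 34.6, 29.95, 27.7 and 25.7 CPM in the 5 mice at ZT9 and 10.9, 20.1, 12.4, 14.03 and 15.6 CPM in those at ZT21, and at 2.11-fold it was among the 8 genes that changed at least 2-fold (SE 0.19 on the log2 scale, adjusted p = 0.0184). *Msmo1* (chr8:64718123-64733578), a methylsterol oxidase, had 134 ± 13.2 CPM at ZT9 and 86.1 ± 5.41 CPM at ZT21 (SD, n = 5, log2 0.63, adjusted p = 0.0184). *Lss*, the lanosterol synthase, had 29.96, 45.4, 49.3, 38.6 and 35.1 CPM in the 5 mice at ZT9 and 10.6, 22.5, 16.05, 27.2 and 23.3 CPM in those at ZT21. These did not overlap, but the difference of 1.02 missed the threshold (adjusted p = 0.0521), and 54.5% of its values were not whole reads.

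Of the 21 cholesterol synthesis genes tested, 6 rose at an adjusted p under 0.05 and 17 were higher at an unadjusted p under 0.05 (81%), against 6.44% of all genes, and none was lower. Their median log2 difference was 0.60, against 0.04 over all genes, and 20 of 21 were above 0. The exception was *Ebp*, at −0.08. Groups did not overlap for 14 of them, against 2.38% of all genes that were higher at ZT9 without overlap. Summed over the list, the level was 2166 to 2685 CPM at ZT9 and 1370 to 1833 CPM at ZT21. The count of 17 was 15 without mouse 1 of both timepoints, with 4 called. Without mouse 2 at ZT9 none of the list was called, since the 3 calls left were *Insig1*, *Hsp90ab1* and *Cirbp*. The list was set with earlier results of these data known, as were all lists below, and these counts describe it.

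Genes that sense or import sterol were mixed. *Srebf2*, which encodes SREBP2, had 352 ± 10.3 CPM and 256 ± 29.2 CPM (log2 0.47, adjusted p = 0.0848). Of 14 genes in this list, 5 were higher at an unadjusted p under 0.05, none was lower, and *Insig1* alone was called. In the opposite direction, *Abcg1*, a cholesterol exporter under the oxysterol receptors (LXRs), had 487, 523, 468, 472 and 468 CPM in the 5 mice at ZT9 and 599, 637, 688, 634 and 575 CPM in those at ZT21. Its groups were separate, and the difference of −0.37 (SE 0.08) just missed the threshold (adjusted p = 0.0511). The other LXR target exporter, *Abca1*, had 6.01 and 8.87 CPM on average with overlapping mice (log2 −0.56, adjusted p = 0.497). Of 11 genes of the LXR list, 2 were lower and 1 higher at an unadjusted p under 0.05, and 5 were above 0. The higher one was *Lpcat3* (log2 0.32, adjusted p = 0.37). The median of the LXR list was −0.07, running from −0.15 to 0.018 with 1 library left out (without mice 2 and 4 at ZT9). Of 16 fatty acid synthesis genes, 4 were higher and 1 lower at an unadjusted p under 0.05, and none was called. Without mouse 1 of both timepoints 7 were higher and none lower, and none was lower without mouse 1 at ZT9 alone. *Fads2* (log2 0.87, adjusted p = 0.122), *Acaca* (log2 0.61, adjusted p = 0.282) and *Fasn* (log2 0.56, adjusted p = 0.327) were above 0. *Elovl6*, a fatty acid elongase, was the lower one (log2 −1.002, adjusted p = 0.387), and the desaturase *Scd1* was at −0.43 (adjusted p = 0.725).

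Promoters of 4 of the 7 called sterol genes are shown because these genes moved together, and *Sqle*, *Fdft1* and *Fdps* had no window in the table used. The stretches below are 250 bases, or 213 for *Hsd17b7*, before the gene's start in RefSeq (GRCm38.p6), 5′ to 3′ on the gene's strand, and cover chr5:28071162-28071411 (+) for *Insig1*, chr1:169969243-169969455 (−) for *Hsd17b7*, chr8:64733579-64733828 (−) for *Msmo1* and chr13:119690101-119690350 (+) for *Hmgcs1*. Capitals mark CCAAT or its reverse complement ATTGG, the letters bound by NF-Y, and TCACCCCAC or its reverse complement, a sterol regulatory element.
Insig1: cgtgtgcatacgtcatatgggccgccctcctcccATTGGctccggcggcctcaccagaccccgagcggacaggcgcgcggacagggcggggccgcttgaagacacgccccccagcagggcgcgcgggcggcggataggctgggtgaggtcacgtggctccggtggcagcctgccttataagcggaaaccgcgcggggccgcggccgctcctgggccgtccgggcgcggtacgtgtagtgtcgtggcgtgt
Hsd17b7: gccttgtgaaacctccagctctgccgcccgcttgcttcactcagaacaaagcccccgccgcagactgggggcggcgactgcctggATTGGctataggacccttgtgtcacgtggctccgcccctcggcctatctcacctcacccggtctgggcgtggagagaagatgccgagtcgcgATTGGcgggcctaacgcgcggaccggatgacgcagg
Msmo1: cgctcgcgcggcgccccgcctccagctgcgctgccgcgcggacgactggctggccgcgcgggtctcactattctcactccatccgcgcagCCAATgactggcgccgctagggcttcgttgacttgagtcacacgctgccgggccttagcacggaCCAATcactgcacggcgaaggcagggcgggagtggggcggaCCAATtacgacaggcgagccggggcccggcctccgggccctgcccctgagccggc
Hmgcs1: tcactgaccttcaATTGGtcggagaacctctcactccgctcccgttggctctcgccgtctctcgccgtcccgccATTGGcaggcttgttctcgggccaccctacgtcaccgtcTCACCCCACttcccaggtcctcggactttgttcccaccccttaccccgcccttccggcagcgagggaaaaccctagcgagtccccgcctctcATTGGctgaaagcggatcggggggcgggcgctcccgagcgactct

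In these stretches the letters CCAAT occurred 1 time before *Insig1*, 216 bases from its start, 2 times before *Hsd17b7* and 3 times each before *Msmo1* and *Hmgcs1*. For *Hsd17b7* the transcript start of the table lies 37 bases inside the gene, and those bases are not printed. In windows of 300 bases, 250 before and 50 after the transcript start of the table, 15 of 16 cholesterol synthesis genes with a window held CCAAT on either strand (93.8%), against 42.7% of 9626 genes tested that have one. The exact letters TCACCCCAC were found in *Hmgcs1* only among the 16 (6.25%, against 0.686%). The E-box CACGTG was in 18.8% of them and in 11.5% of all, and the D-box TTATGTAA in none and in 0.675% of all. Such matches describe the letters only, and their absence says nothing of a factor.

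**Figure D3:**
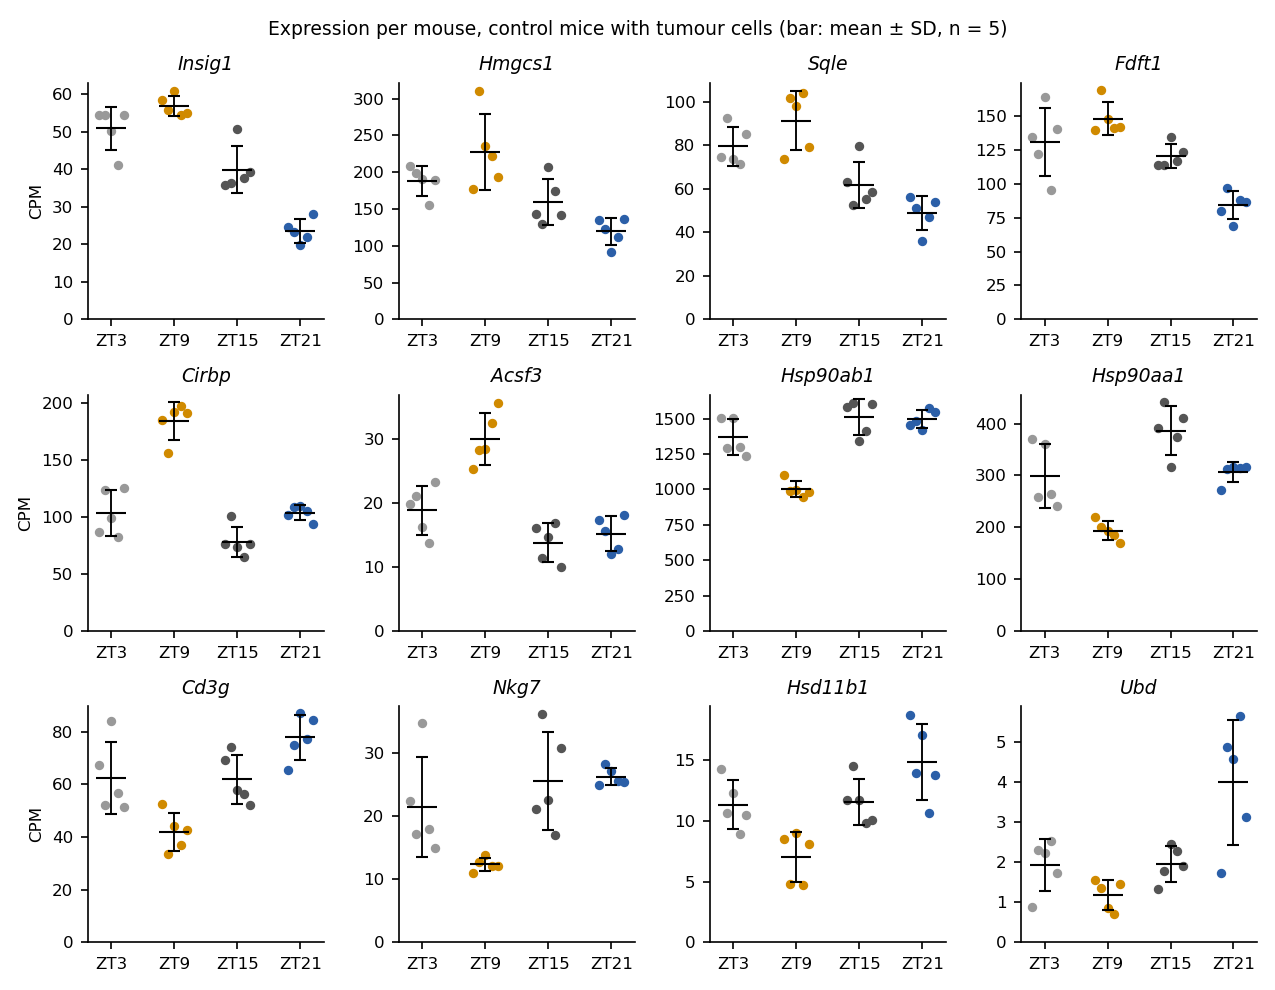
Each panel gives the CPM of 1 gene in the 20 control mice with tumour cells, in 4 columns of 5 from ZT3 to ZT21, with a bar at the mean and whiskers of 1 SD. *Insig1*, *Hmgcs1*, *Sqle*, *Fdft1*, *Cirbp* and *Acsf3* have their highest mean at ZT9, and *Hsp90ab1*, *Hsp90aa1*, *Cd3g*, *Nkg7*, *Hsd11b1* and *Ubd* their lowest.

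The means at all 4 timepoints describe the called genes further. These genes were chosen by their difference between ZT9 and ZT21, a choice that favours either as the extreme, so the counts are a description. All 11 genes that rose had their highest mean at ZT9, and the lowest mean was at ZT21 for 8 and at ZT15 for 3. All 16 that fell had their lowest mean at ZT9, and the highest was at ZT21 for 11 and at ZT15 for 5. *Insig1* averaged 50.9, 56.95, 39.95 and 23.6 CPM at ZT3, ZT9, ZT15 and ZT21, so that ZT3 was close to ZT9. *Cirbp* averaged 104, 184, 78.5 and 104 CPM in the same order, and here ZT9 stood apart from the other 3.

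*Cirbp* (chr10:80165990-80172786), which encodes a cold-inducible RNA-binding protein, rose at ZT9. It had 185, 156, 193, 197 and 191 CPM in the 5 mice at ZT9 and 102, 109, 109.5, 106 and 93.9 CPM in those at ZT21. The lowest mouse at ZT9 was well above the highest at ZT21, and the change was 1.77-fold, a log2 difference of 0.82 (SE 0.13, adjusted p = 0.0134). Its relative *Rbm3*, also cold-inducible, had 413, 354, 374, 371 and 382 CPM in the 5 mice at ZT9 and 265, 298, 271, 264 and 243 CPM in those at ZT21. These did not overlap either, but the difference of 0.50 did not pass the test (adjusted p = 0.122), and 88.6% of its values were not whole reads. Of the 37 splicing and RNA-binding genes listed with them, *Cirbp* alone was called, and the list's median was −0.02.

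Both cytosolic HSP90 genes fell. *Hsp90ab1* (chr17:45567778-45573261), the constitutive form, had 1103, 988, 998, 948 and 979 CPM in the 5 mice at ZT9 and 1453, 1482, 1422, 1573 and 1550.2 CPM in those at ZT21. All 5 mice at ZT9 were below all 5 at ZT21, with little spread, and the level at ZT21 was 1.49-fold that at ZT9 (log2 −0.58, SE 0.09, adjusted p = 0.0133). Non-whole values made up 34.1% of its libraries. *Hsp90aa1* (chr12:110691036-110696395), the inducible form, had 221, 201, 192, 185 and 170.2 CPM in the 5 mice at ZT9 and 271, 313, 316, 314 and 316 CPM in those at ZT21 (log2 −0.66, adjusted p = 0.0341). Their co-chaperone *Ahsa1* (log2 −0.42, adjusted p = 0.0551), the HSP70 gene *Hspa8* (log2 −0.39, adjusted p = 0.0664), its partner *Dnajb1* (log2 −0.38, adjusted p = 0.193) and the mitochondrial chaperonin *Hspe1* (log2 −0.62, adjusted p = 0.13) were below 0 without passing the test. For *Hspa8* the 5 values at ZT9 were 1528, 1596, 1546, 1534 and 1659 CPM and those at ZT21 2143, 1891, 1924, 2142 and 2211 CPM, so that these groups too were separate.

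Of 29 chaperone genes, 13 were lower at an unadjusted p under 0.05 (44.8%, against 5.02% of all genes) and 1, *Hspa4*, was higher (0.36). The median was −0.20, and 10 of the 29 were lower without overlap (1.71% of all genes). Summed over the list, the level was 5152 to 5471 CPM at ZT9 and 6472 to 7030 CPM at ZT21. Of 26 genes of the unfolded protein response, 1 was lower and none higher, with a median of −0.06.

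Of the 16 genes that fell, 8 were grouped here as lymphocyte genes by their known roles after they were called, not by a fixed list. *Cd3g*, *Rhoh* and *Skap1* were on the T cell list and *Nkg7* on the NK list. *Ltb*, *Cd27*, *Izumo1r* and *Cd96* were on neither, so this count has no background share. *Cd3g* (chr9:44969572-44980431), a chain of the T cell receptor complex, had 52.6, 33.7, 44.1, 36.9 and 42.6 CPM in the 5 mice at ZT9 and 65.4, 75.01, 87.02, 76.98 and 84.4 CPM in those at ZT21. No mouse at ZT9 reached the lowest at ZT21, which was 1.85-fold higher on average (log2 −0.89, SE 0.15, adjusted p = 0.0184). *Nkg7* (chr7:43437138-43438246), a protein of cytotoxic granules, had 11.03, 12.8, 13.8, 12.1 and 12.01 CPM in the 5 mice at ZT9 and 24.8, 28.2, 27.1, 25.5 and 25.4 CPM in those at ZT21. Both groups were tight and far apart, and the difference was −1.06 (SE 0.20, adjusted p = 0.0332). *Rhoh* (chr5:65860742-65896700), a small GTPase needed for T cell receptor signalling, had 9.66, 15.6, 15.4, 17.7 and 17.7 CPM in the 5 mice at ZT9 and 25.1, 24.9, 30.1, 26.4 and 27.7 CPM in those at ZT21 (log2 −0.83, adjusted p = 0.0184). *Ltb* (chr17:35194507-35196305), which encodes lymphotoxin β, had 58.9 ± 7.68 and 99.2 ± 12.3 CPM (SD, n = 5, log2 −0.75, adjusted p = 0.0184). The co-stimulatory receptor gene *Cd27* (log2 −0.98), the adaptor *Skap1* (−0.63), *Izumo1r* (−1.07), a surface protein of regulatory T cells, and *Cd96* (−0.70), a receptor of T and NK cells, also fell, with adjusted p-values of 0.0324 to 0.0455.

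Of 25 T cell genes, 16 were lower at an unadjusted p under 0.05 (64%, against 5.02%) and none was higher, with a median of −0.60, and *Cd3g*, *Rhoh* and *Skap1* were called. With each of 20 libraries left out in turn, these were called in 17, 16 and 5 fits, and none of them without mouse 2 at ZT9. *Cd3d* had 43.6, 17.6, 31.98, 24.1 and 33.1 CPM in the 5 mice at ZT9 and 45.6, 48.7, 72.9, 58.4 and 59.1 CPM in those at ZT21, which overlapped nowhere, with a difference of −0.95 (adjusted p = 0.061). For *Cd3e*, mouse 1 at ZT9 (54.3 CPM) exceeded 2 mice at ZT21, and the difference of −0.67 did not pass the test (adjusted p = 0.202). The list summed to 757 to 995 CPM at ZT9 and 1031 to 1334 CPM at ZT21, so even the sums were separate. The count of 16 was the same without mouse 1 of both timepoints, and at least 14 without any single one of the 10 mice. In such bulk libraries, fewer cells of a type and less RNA per cell cannot be told apart. The part of T cells in the sorted samples in this result was not tested.

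The other cell type lists are given in turn. Of 11 NK cell genes only *Nkg7* was lower, the median was −0.02, and the defining genes *Ncr1* (0 to 1.15 CPM) and *Klrb1c* (0 to 2.78 CPM) were at or near 0. This median was −0.25 without mouse 1 at ZT9, and without mouse 1 of both timepoints it was −0.21 with 2 genes lower and 1 higher. The NK list summed to 6074 to 8909 CPM at ZT9 and 6638 to 8920 CPM at ZT21, carried by the chemokine gene *Ccl5* (5984 to 8830 CPM), which is also on the chemokine list. Without it the sums were 73.1 to 93.7 and 90.1 to 99.96 CPM. None of 11 B cell genes differed at an unadjusted p under 0.05 (median −0.06, but 0.10 without mouse 1 at ZT9, and 1 gene higher without mouse 2 at ZT9), and their sums of 56.7 to 85.1 and 61.1 to 85.0 CPM overlapped. Of 13 monocyte and macrophage genes, 7 were lower and 1 higher, none was called, and the median was −0.43, with sums of 488 to 684 CPM at ZT9 and 696 to 846 CPM at ZT21. The complement gene *C1qa* had 13.7, 13.4, 12.9, 12.7 and 10.4 CPM in the 5 mice at ZT9 and 23.9, 20.9, 20.8, 16.2 and 14.6 CPM in those at ZT21 (log2 −0.58, adjusted p = 0.298). The sums of this list therefore separated the timepoints in the same direction as those of the T cell list. Most of each sum was *Lyz2*, with 306 to 476 CPM at ZT9 and 456 to 585 CPM at ZT21, which overlapped. Of the 13 genes 11 were below 0. The gene that was higher was *Adgre1* (log2 0.41, adjusted p = 0.359), and *Mertk* was also above 0 (log2 0.71, adjusted p = 0.497).

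Genes that mark subsets of DCs gave no call. Of 12 cDC2 genes, 5 were lower at an unadjusted p under 0.05 (41.7%) and none was called, and the count was 3 without mouse 1 at ZT21. *Mgl2*, a lectin of dermal cDC2s, had 4.76, 5.23, 0.620, 2.19 and 0.790 CPM in the 5 mice at ZT9 and 16.2, 6.31, 19.2, 6.22 and 4.51 CPM in those at ZT21. Mice 1 and 2 at ZT9 were above mouse 5 at ZT21, so the groups overlapped, and the difference of −1.87 (SE 0.51) was large but did not pass the test (adjusted p = 0.166), with 97.7% of values not whole reads. The cDC2 sums nevertheless overlapped, at 247 to 314 and 229 to 342 CPM. Of 9 plasmacytoid DC genes, 3 were lower, among them *Ccr9* (log2 −0.90, adjusted p = 0.196) and *Bst2* (log2 −0.52, adjusted p = 0.19). *Bst2*, also on the list of interferon-stimulated genes, had 83.6 to 120 CPM at ZT9 and 118 to 160.5 CPM at ZT21. With it the list summed to 237 to 262 CPM at ZT9 and 267 to 322 CPM at ZT21. Only *Tcf4* was above 0 (log2 0.23, adjusted p = 0.449). Of 13 cDC1 genes 2 were lower (median −0.10), and none of 7 Langerhans cell genes differed. The cDC1 median ran from −0.15 without mouse 1 at ZT21 to −0.0046 without mouse 3 at ZT21. With 1 library left out, 1 to 3 cDC1 genes were lower and 0 to 1 higher. The genes of migratory mature DCs, at sums of 31277 to 35875 CPM, had a median of 0.07, and 1 of 19, *Ly75*, which encodes the uptake receptor DEC-205, was higher (log2 0.59, adjusted p = 0.356).

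The remaining called genes had other roles. *Acsf3* (chr8:122775470-122817887), a mitochondrial malonyl-CoA synthetase, had 25.3, 28.3, 28.6, 32.5 and 35.7 CPM in the 5 mice at ZT9 and 17.4, 15.7, 12.05, 12.9 and 18.2 CPM in those at ZT21. The groups were separate, at 1.95-fold (log2 0.97, adjusted p = 0.0184). *Hsd11b1* (chr1:193221640-193264045), which regenerates active glucocorticoid within cells, had 8.47, 4.78, 8.98, 4.76 and 8.07 CPM in the 5 mice at ZT9 and 18.7, 13.96, 17.03, 10.6 and 13.8 CPM in those at ZT21. It was 2.07-fold higher at ZT21 (SE 0.19 on the log2 scale, adjusted p = 0.0262), with the lowest mouse at ZT21 just above the highest at ZT9. *Ubd* (chr17:37193892-37196101), the ubiquitin-like FAT10, had 1.56, 1.35, 0.863, 0.697 and 1.46 CPM in the 5 mice at ZT9 and 1.72, 4.87, 4.58, 5.64 and 3.12 CPM in those at ZT21. At −1.36 its fitted difference was the lowest of the called genes, but mouse 1 at ZT21 lay close to the ZT9 mice, and values were low. The chemokine gene *Ccl12* (chr11:82101845-82103399) was low as well, with 1.52 ± 0.677 and 4.29 ± 1.30 CPM (SD, n = 5, log2 −1.27, adjusted p = 0.0332). *Stmn1*, a microtubule regulator of dividing cells (log2 −0.75, adjusted p = 0.0341), *Ly6e*, an interferon-inducible surface protein (log2 −0.76, adjusted p = 0.0455), and *Acyp1*, an acylphosphatase (log2 −0.84, adjusted p = 0.0341), fell. *Pianp*, a transmembrane ligand of PILRα (log2 0.73, adjusted p = 0.0455), and *Zfp59*, a zinc finger gene (log2 1.07, adjusted p = 0.0477), rose. The values of *Zfp59* were not whole reads in 95.5% of the libraries. At the threshold, *Pianp* and *Cd96* (both 0.0455) and *Zfp59* (0.0477) were just inside, and *Rlim*, *Rmi2* and *Mvd* (0.0511 each) just outside.

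**Figure D4:**
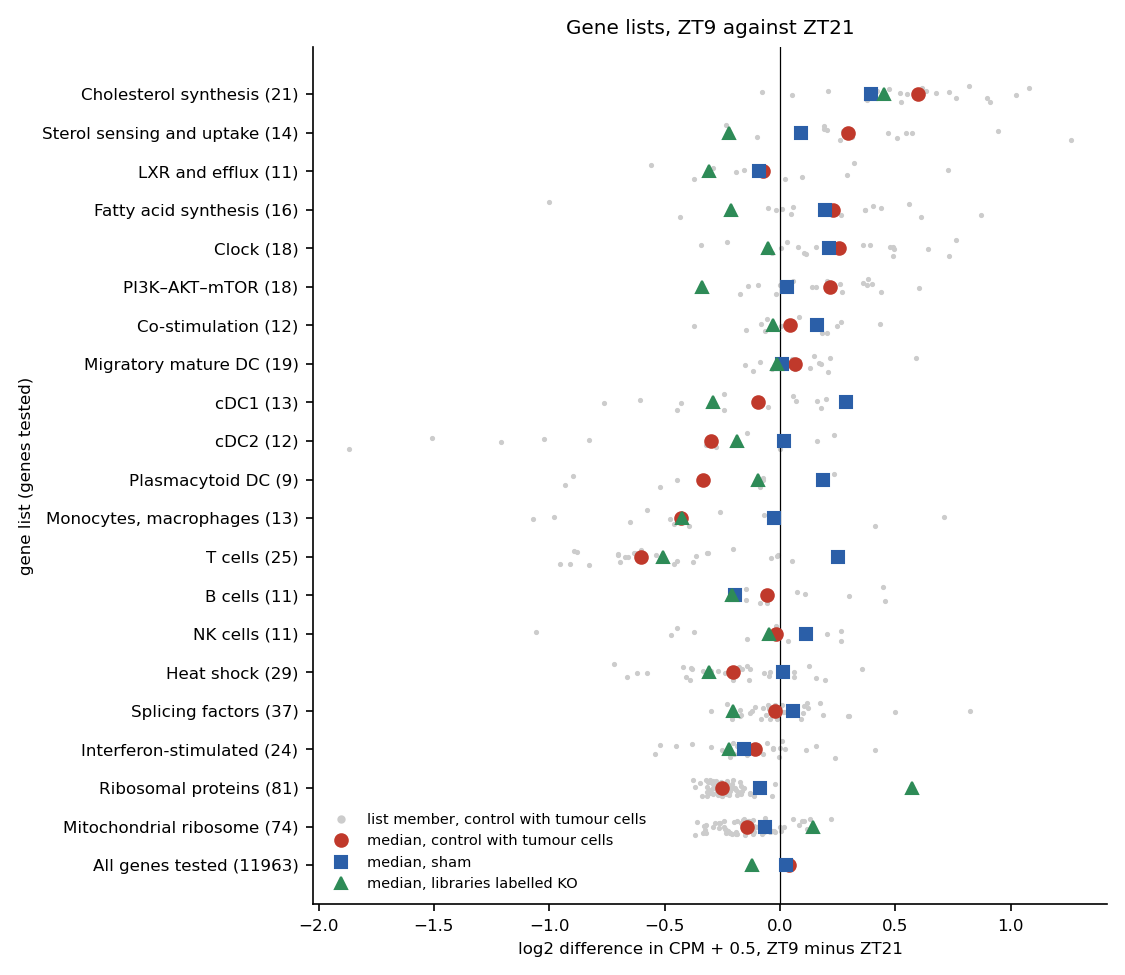
Grey points are the log2 differences of list members in control mice with tumour cells, ZT9 minus ZT21, and coloured symbols are list medians in those mice (circles), in sham-injected mice (squares) and in libraries labelled KO (triangles). Numbers in brackets are genes tested. Cholesterol synthesis has a positive median in all 3 groups, and the T cell median is −0.60 in control mice with tumour cells and 0.25 in sham-injected mice.

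Clock genes were spread around a small positive median. Of 18, 4 were higher at an unadjusted p under 0.05 and none was called, with a median of 0.26. That count was 2 without mouse 3 at ZT9. *Per1*, a repressor of the loop, had 20.5, 19.2, 15.6, 19.4 and 16.9 CPM in the 5 mice at ZT9 and 7.51, 8.77, 17.3, 12.7 and 10 CPM in those at ZT21. Only mouse 3 at ZT21 reached the range of ZT9, and the difference was 0.73 (SE 0.21, adjusted p = 0.176). The output gene *Dbp* had 39.5 ± 3.51 and 30.04 ± 2.94 CPM (log2 0.39, adjusted p = 0.315). *Nr1d2* (log2 0.76, adjusted p = 0.389) and *Tef* (log2 0.48, adjusted p = 0.434) were the other 2. *Arntl* had 15.7 ± 2.06 CPM at ZT9 and 15.7 ± 2.80 CPM at ZT21 (SD, n = 5, log2 0.00, adjusted p = 0.994).

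Genes by which DCs activate T cells gave no call. None of 12 co-stimulation genes differed at an unadjusted p under 0.05. *Cd80*, the ligand of CD28, had 15.8, 17.2, 9.50, 15.3 and 12.1 CPM in the 5 mice at ZT9 and 12.2, 10.3, 11.7, 10.7 and 12.5 CPM in those at ZT21. The ranges overlapped widely, with a difference of 0.25 (SE 0.16, adjusted p = 0.55), and those of *Cd86* (log2 0.18, adjusted p = 0.648) and the inhibitory ligand *Cd274* (log2 0.27, adjusted p = 0.522) did not pass the test either. The difference of *Cd80* was 0.37 without mouse 3 at ZT9, where 1 co-stimulation gene was higher at an unadjusted p under 0.05. For *Cd86* the value was 0.073 without mouse 4 at ZT9 and 0.105 without mouse 3 at ZT21. None of 11 MHC class II genes differed (median −0.16, but −0.073 without mouse 5 at ZT9). Of 13 class I genes 1 was lower, and so was 1 of 24 interferon-stimulated genes. Of 18 PI3K–AKT–mTOR genes, 4 were higher and none called, among them *Mtor* (log2 0.60, adjusted p = 0.32), *Pik3r1* (log2 0.27, adjusted p = 0.274) and *Tsc1* (log2 0.44, adjusted p = 0.288). Among 12 chemokine genes 3 were lower, namely *Ccl4* (log2 −1.13, adjusted p = 0.276), *Ccl3* (log2 −0.89, adjusted p = 0.305) and *Cxcl10* (log2 −0.67, adjusted p = 0.367).

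All 81 ribosomal protein genes were below 0 (median −0.25), 8 of them at an unadjusted p under 0.05, and none was called. That count ran from 1 without mouse 2 at ZT9 to 40 without mouse 5 at ZT21, and was 24 without mouse 1 of both timepoints, so it rests on single libraries. Mitochondrial ribosomal genes had a median of −0.14, with 14 of 74 lower and none higher, and 4 lower without mouse 2 at ZT21. Of 32 cell cycle genes 2 were lower (6.25%, against 5.02% of all genes), *Stmn1* and *Mki67* (log2 −0.52, adjusted p = 0.2). As many were higher (6.25%, against 6.44%), *Mcm3* (log2 0.41, adjusted p = 0.246) and *Cdk2* (log2 0.37, adjusted p = 0.371). The lower ones numbered 5 without mouse 5 at ZT21 and also without mouse 1 of both timepoints.

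The same contrast was set beside sham-injected mice and libraries labelled KO, which share no sample with the 10. The gene targeted in the libraries labelled KO, *Arntl*, had 19.9 ± 6.91 CPM there (SD, n = 12) and 14.8 ± 3.65 CPM in control mice with tumour cells (n = 20), so it does not check the label, by which the group is called throughout. With 3 mice at each timepoint, limma called no gene in sham-injected mice (637 at an unadjusted p under 0.05, 5.32%) and 1 in libraries labelled KO (0.00836%, with 1308 at an unadjusted p, 10.9%). The numbers of mice differ from those of control mice, so the counts of calls are not comparable. The 27 genes were chosen by their difference in control mice with tumour cells, and the values in the other groups took no part in that choice.

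The 11 genes that rose had a median log2 difference of 0.90 in control mice with tumour cells, 0.51 in sham-injected mice and 0.54 in libraries labelled KO. Of them 10 were above 0 in sham-injected mice and all 11 in libraries labelled KO, against 54.4% and 42.8% of all genes with the same sign as in control mice. *Insig1* had 47.5, 39.4 and 43.2 CPM at ZT9 and 17.5, 43.8 and 26.2 CPM at ZT21 in sham-injected mice. Mouse 2 at ZT21 reached the range of ZT9, and the difference was 0.66 (SE 0.28, unadjusted p = 0.0384, adjusted p = 0.92 in limma). In libraries labelled KO it had 59.1, 49.7 and 87.1 CPM and 47.6, 43.3 and 26.9 CPM, which did not overlap, with a difference of 0.73 (SE 0.25, unadjusted p = 0.0146, adjusted p = 0.384 in limma). The cholesterol synthesis list had 8 of 21 genes higher in sham-injected mice and 7 in libraries labelled KO at an unadjusted p under 0.05, against 3.61% and 2.05% of all genes, and medians of 0.39 and 0.45. *Abcg1* differed by −0.40 and −0.37 in these groups, close to its −0.37 in control mice with tumour cells.

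The 16 genes that fell had a median of −0.83 in control mice with tumour cells, 0.22 in sham-injected mice and −0.31 in libraries labelled KO. Of them 5 were below 0 in sham-injected mice and 14 in libraries labelled KO. Of all genes, in either direction, 54.4% and 42.8% had the same sign as in control mice. The median of all genes in libraries labelled KO was itself below 0, at −0.12. In sham-injected mice *Ccl12* was the only one lower at an unadjusted p under 0.05 (log2 −1.16, adjusted p = 0.784 in limma), against 1.71% of all genes. In libraries labelled KO it was *Hsp90ab1* (log2 −0.42, adjusted p = 0.348 in limma), against 8.89%. Comparing control with sham-injected mice, the difference was below 0 at an unadjusted p under 0.05 for 15 of the 16 (3.83% of all genes) and above 0 for 2 of the 11 that rose (2.79%, and 6.62% in either direction), but no gene passed after adjustment, and the 27 genes were chosen by 1 of the 2 differences compared here. For *Ubd* it was −1.99 (adjusted p = 0.266), and for *Cd3g* −1.04 (adjusted p = 0.488). Of the 25 T cell genes, 14 had such a difference below 0 at an unadjusted p under 0.05. The T cell list had a median of 0.25 in sham-injected mice, with sums of 1196 to 1571 CPM at ZT9 and 997 to 1221 CPM at ZT21, and was at −0.51 in libraries labelled KO, with 974 to 1058 CPM and 1171 to 1879 CPM. Macrophage genes summed to 2680 to 2998 and 2055 to 3230 CPM in sham-injected mice, above both timepoints in control mice with tumour cells. *Cd80* differed by 0.97 in sham-injected mice (SE 0.21, unadjusted p = 0.00106, adjusted p = 0.722 in limma).

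**Figure D5:**
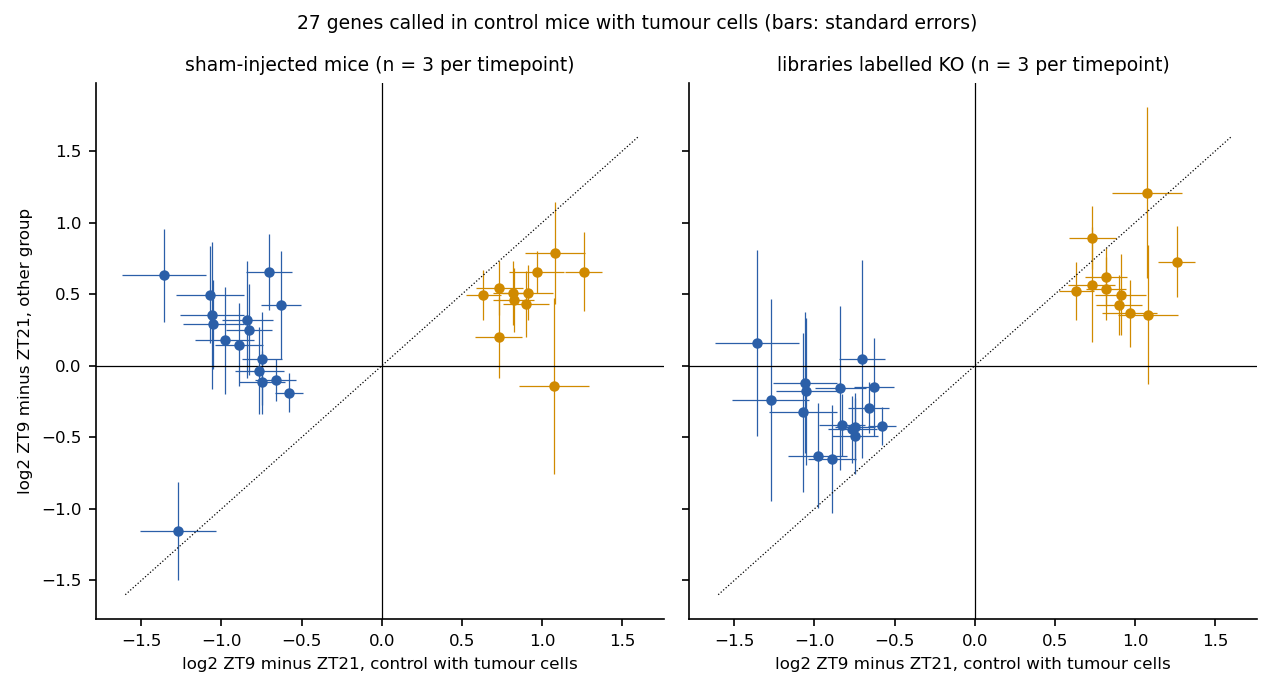
The 27 called genes, with their log2 difference (ZT9 minus ZT21) in control mice with tumour cells on the x axis and in sham-injected mice (left) or libraries labelled KO (right) on the y axis. Bars are standard errors, n is 5 and 3 mice per timepoint, and the dotted line marks equal differences. Of the genes that rose, 10 of 11 lie above 0 on the left and 11 on the right. Of those that fell, 5 of 16 lie below 0 on the left and 14 on the right. Among all genes, 54.4% had the same sign as in control mice in sham-injected mice and 42.8% in libraries labelled KO.

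Between control mice and libraries labelled KO the difference itself was called for 4 genes (0.0334%), *Cfap43*, *Napb*, *Myo7a* and *Ccdc30*, and none of the 27 was among them. At an unadjusted p under 0.05 it was above 0 for 2 of the 11 genes that rose, *Insig1* and *Acsf3* (11.6% of all genes), and below 0 for 1 of the 16 that fell, *Ubd* (4.96%). All genes together had a median log2 difference of −0.12 in libraries labelled KO, against 0.04 in control mice. Ribosomal protein genes had a median of 0.57 in the former, and the part of this shift in the values above was not tested. For *Insig1* the difference between these groups was 0.53 (SE 0.24, unadjusted p = 0.0322, adjusted p = 0.265).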

How the data were processed

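RNA was sequenced from sorted CD11c+MHCII high cells of single mice (single reads of 50 bases, SMART-Seq v4 and Nextera XT libraries). Per the labels and methods, the authors used STAR for alignment to mm10, HTSeq 0.9.1 for read counting and edgeR for scaling to the size of each library. The deposited values are CPM of 14699 genes, and each column adds up to 1000000. Between 89.13% and 90.49% of values in the 10 libraries were whole multiples of the value of 1 read (tolerance 0.02 reads), which gave 20088012 to 25401545 reads on genes per library. Since the rest were not whole, no count test was run and counting error is not given.

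The filter kept the 11963 genes that reached 1 CPM in 5 or more of 44 libraries, and 2736 were below it. Means of the 4 timepoints were fitted with limma 3.58.1 (R 4.3.3) on log2(CPM + 0.5) in the 20 control libraries, which share 1 estimate of the spread, with empirical Bayes moderation, and ZT9 was contrasted with ZT21. Fold changes on this scale understate those of low genes. P-values were two-sided and adjusted by Benjamini–Hochberg over all genes tested. Calls needed an adjusted p under 0.05, and for the stricter count also a 2-fold change. Sham-injected mice and libraries labelled KO were fitted in the same way (12 libraries each), and differences between groups on 32 libraries. Genes named in the text are the called genes with at least a 2-fold change, the 12 with the smallest p in each direction, up to 4 with the smallest p in each of 42 lists, the 3 with the smallest p in each comparison between groups, and *Arntl*, *Cd80*, *Per1* and *Dbp*. Others (the remaining called genes, and such as *Idi1*, *Cd3e* or *Cd86*) were added after their values were seen, for their call or role. The 10 libraries and the lists were chosen with earlier results of these data known. Gene lists are described by counts and medians, with no set test.

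Coordinates and promoters are from RefSeq (GRCm38.p6, the patched form of mm10), to which 14697 symbols of the table matched. No pair of libraries held identical values. On simulated data with 200 of 11963 genes changed (10 runs), this comparison called 63.7% of genes changed 2-fold, 21.8% of those changed 1.41-fold and 0.0349% of unchanged genes. The simulated noise was drawn independently for each gene and library, so these rates do not cover single deviant libraries or a batch. Alternatives were other pseudocounts, scaling, filters, sets of libraries, variance models, a replicate block and leaving out libraries. Values of some single genes are not reported here.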

Additional observations from a re-analysis of the deposited data

Results flagged for a closer look

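Single mice stood apart from the other 4 of their group, by Dixon's test, for 16 of 182 sets of values examined, and chance alone picks out about 1 in 20. At ZT9, mouse 2 had 169 CPM of *Fdft1* (the others 140 to 147), 3.99 of *Izumo1r* (7.76 to 8.11) and 20.2 of *Lef1* (27.1 to 29.4). Mouse 1 at ZT9 had 9.66 CPM of *Rhoh* (15.4 to 17.7), 30.6 of *Acat2* (25.1 to 26.3), 7.1 of *Cd209d* (1.99 to 3.23), 6.58 of *Ccl4* (1.04 to 1.9) and 25.5 of *Hnrnpa0* (20.2 to 21.7). Mouse 4 at ZT9 had 33.5 CPM of *Dbp* (39.9 to 42.4) and 211 of *Cd86* (132 to 154). At ZT21, mouse 1 had 271 CPM of *Hsp90aa1* (313 to 316) and 10.8 of *Nsdhl* (25.1 to 26.9), mouse 2 had 0.603 of *Cox6a2* (0.972 to 1.1), mouse 3 had 21 of *Izumo1r* (12.8 to 15.1) and 48.5 of *Cd8b1* (34.1 to 38.3), and mouse 5 had 22.3 of *Hnrnpa0* (27.8 to 28.6).

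The log2 difference between ZT9 and ZT21 differed between control mice with tumour cells and libraries labelled KO, by the interaction term of limma, for *Napb* (4.05, adjusted p = 0.00805), *Myo7a* (3.28, adjusted p = 0.00805), *Cfap43* (3.04, adjusted p = 0.00437) and *Ccdc30* (2.24, adjusted p = 0.0338), all 4 above 0. In control mice these genes differed by 0.19 to 1.02 and in libraries labelled KO by −3.04 to −1.80, at levels no higher than 4.70 CPM in any of these groups on average.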

How the results depend on the processing

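The count of 27 genes was 31 and 30 with pseudocounts of 1 and 0.1, 24 with median-of-ratios scaling and 28 with no filter. It became 473 with array weights, 54 with a mean of at least 10 CPM, 12 with all 44 libraries as 12 groups, 49 with an intensity trend, 46 with ordinary least squares, 19 with the 10 libraries alone and 21 without mouse 1 of both timepoints, an alternative added after the data were seen. The 8 genes with at least 2-fold change became 47 with array weights and 1 with all 44 libraries. With the replicate number as a block the counts were 15 and 5. The numbers do not pair mice, since deviations of mice with the same number correlated by −0.04 to −0.01 and none of 5 matched its own number best. The cause of these shifts was not tested. With 1 library left out in turn the counts ran from 3 to 67 and from 1 to 15, lowest without mouse 2 at ZT9 and highest without mouse 3 at ZT3. The 27 genes kept their direction in each fit that tested them, 21 of them with a mean of at least 10 CPM. Scaling moved the median of all genes from 0.04 to −0.01, and 16 of the 27 were still called.

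In sham-injected mice the count was 0 in each fit. In libraries labelled KO the 1 call became 2 with no filter, 70 with array weights and 0 with the replicate block, and 0 to 1 with a library left out (0 without mouse 2 or 3 of either timepoint). Between control and sham-injected mice it was 0 to 1 with a library left out (1 without sham mouse 3 at ZT9). Between control mice and libraries labelled KO the 4 calls became 802 with array weights and 3 to 28 with a library left out, being 28, 25, 16 and 9 without KO mouse 3 at ZT9, mice 2 and 3 at ZT21 and mouse 1 at ZT9, and 7 without control mouse 3 at ZT9. *Arntl* (log2 0.00) became −0.044 with median-of-ratios scaling and ran from −0.056 to 0.099 with a library left out. At about 23.1 reads per CPM, genes near 1 CPM such as *Ubd* and *Ccl12* rest on few reads.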
